A study of Mus musculus with 12 samples.

Results

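Transcripts of the circadian clock were followed in cultured mouse hepatocytes through 10 genes: the activators Arntl and Npas2, the repressors Per1, Per2, Cry1, Cry2, Nr1d1 and Nr1d2, and the outputs Dbp and Nfil3. Members were taken by name, as every array probe whose RefSeq accession maps to one of these symbols, which gave 16 of the 41174 probes. Of these, 15 cleared the background flag on each array of some group and entered the tests, beside 24965 tested probes in all. The exception was the dimmer of the 2 Cry2 probes, which was above background on 5 of 12 arrays and was not tested, although the brighter Cry2 probe was.

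The study asked what a hairpin against TLS does in hepatocytes with and without PGC-1alpha, the product of Ppargc1a, which coactivates genes of mitochondria and of glucose production. Hepatocytes were isolated from the livers of C57BL/6 mice and infected overnight, at a multiplicity of 5, with an adenovirus that carries a short hairpin RNA. RNA was taken 24 h after infection, in medium with serum, 100 nM dexamethasone (a glucocorticoid) and 100 nM insulin, and labelled with Cy3 for 1-colour arrays. The 4 groups were PGC-1alpha -/- cells with a hairpin against TLS (-/- shTLS), PGC-1alpha -/- cells with a control hairpin (-/- control), PGC-1alpha +/+ cells with the TLS hairpin (+/+ shTLS) and PGC-1alpha +/+ cells with the control hairpin (+/+ control), with 3 arrays each. Each of the 6 mice gave 1 culture per hairpin, so arrays of the same genotype and number share a mouse. Arrays of the same number also share an independent assay and a slide across genotypes. All groups therefore share the strain, the medium and an adenoviral infection, each arm has a single vector, and the labels give neither the deleted part of Ppargc1a nor a time of day for plating or harvest.

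The clock is a transcriptional feedback loop that runs in nearly every cell. ARNTL (also called BMAL1) pairs with CLOCK or its relative NPAS2 and activates E-box genes, among them the Per, Cry and Nr1d genes and Dbp. PER and CRY proteins return to block that pair, and the nuclear receptors NR1D1 and NR1D2 (REV-ERB alpha and beta) repress Arntl and Nfil3 through ROR elements. DBP activates and NFIL3 represses D-box genes, and in liver these outputs time much of lipid, bile acid and xenobiotic metabolism.

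Promoter sequence is shown for members whose start-site window holds the letters of an E-box type or ROR element, since these are the letters through which the loop is known to close on itself. RefSeq start-site windows on GRCm38.p6 (300 bases each, most of them upstream of the start) were held for 9 of the 10 genes, 11 windows in all. They were searched on both strands for the E-box CACGTG, the E-prime box CACGTT, the D-box TTANGTAA, the ROR elements TAGGTCA and TGGGTCA and the cyclic AMP response element TGACGTCA. Capitals mark each match in the 6 windows below, and the marked stretches do not overlap.
Arntl, second window (chr7:113207261-113207560, + strand): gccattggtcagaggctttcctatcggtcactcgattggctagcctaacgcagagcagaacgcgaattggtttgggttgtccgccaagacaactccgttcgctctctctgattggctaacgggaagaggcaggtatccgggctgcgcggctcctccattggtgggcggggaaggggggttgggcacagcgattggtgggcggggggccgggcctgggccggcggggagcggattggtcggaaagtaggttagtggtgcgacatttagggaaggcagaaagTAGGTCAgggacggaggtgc
Per1, first window (chr11:69098699-69098998, + strand): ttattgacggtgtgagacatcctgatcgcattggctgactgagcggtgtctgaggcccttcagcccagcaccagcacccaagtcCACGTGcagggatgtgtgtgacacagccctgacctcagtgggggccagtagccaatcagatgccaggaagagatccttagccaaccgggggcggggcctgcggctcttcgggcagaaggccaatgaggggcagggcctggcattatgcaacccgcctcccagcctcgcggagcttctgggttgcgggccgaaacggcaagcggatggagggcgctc
Cry1 (chr10:85185005-85185304, - strand): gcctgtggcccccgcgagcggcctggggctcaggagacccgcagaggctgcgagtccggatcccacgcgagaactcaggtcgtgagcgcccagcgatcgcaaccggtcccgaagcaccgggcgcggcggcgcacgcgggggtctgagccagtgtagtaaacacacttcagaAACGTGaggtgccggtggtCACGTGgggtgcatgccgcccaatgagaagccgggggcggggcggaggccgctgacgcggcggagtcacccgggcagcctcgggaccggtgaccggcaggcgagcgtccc
Cry2 (chr2:92434020-92434319, - strand): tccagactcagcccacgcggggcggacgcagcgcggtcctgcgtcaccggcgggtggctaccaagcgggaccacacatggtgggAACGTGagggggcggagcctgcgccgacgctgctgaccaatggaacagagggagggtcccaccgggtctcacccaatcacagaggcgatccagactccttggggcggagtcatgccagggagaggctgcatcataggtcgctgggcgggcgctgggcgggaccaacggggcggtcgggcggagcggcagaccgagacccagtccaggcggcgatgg
Nr1d1 (chr11:98775328-98775627, - strand): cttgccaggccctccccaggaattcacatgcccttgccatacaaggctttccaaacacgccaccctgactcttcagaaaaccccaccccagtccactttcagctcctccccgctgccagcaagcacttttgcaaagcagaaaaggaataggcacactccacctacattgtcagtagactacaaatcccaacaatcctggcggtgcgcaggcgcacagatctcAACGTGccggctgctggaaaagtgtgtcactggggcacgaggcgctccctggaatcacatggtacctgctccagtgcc
Nfil3 (chr13:52980990-52981289, - strand): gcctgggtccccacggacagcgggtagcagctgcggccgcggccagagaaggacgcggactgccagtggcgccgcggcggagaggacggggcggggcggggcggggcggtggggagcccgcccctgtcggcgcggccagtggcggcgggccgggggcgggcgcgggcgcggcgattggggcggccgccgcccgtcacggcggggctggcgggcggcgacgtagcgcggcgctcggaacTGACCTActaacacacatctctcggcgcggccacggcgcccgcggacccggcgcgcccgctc
With the start site's base counted as 0, Per1 held 1 E-box at -166 to -161, and Cry1 held an E-box at -60 to -55 and, on the opposite strand, an E-prime box at -79 to -74. An E-prime box on the opposite strand stood at -28 to -23 in the Nr1d1 window and at -166 to -161 in that of Cry2. The ROR element TAGGTCA stood at 30 to 36 in the second Arntl window and, on the opposite strand, at -12 to -6 in that of Nfil3. In all, the E-box was in 2 of the 11 member windows, the E-prime box in 3 and TAGGTCA in 2, against 7.15%, 4.68% and 2.61% of all 32851 windows in the table. By gene these were 2, 3 and 2 of 9 members. The D-box, TGGGTCA and the cyclic AMP response element were in 0 of the 11 member windows, against 2.32%, 3.98% and 1.79% of all windows. These are matches of letters within 300 bases and not measured binding.

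The arrays held 22706 to 26680 probes well above background, and 0 pairs of arrays held identical values. The 75th percentile of the processed signal lay at 327 to 595 on the 6 shTLS arrays and at 764 to 1007 on the 6 control arrays, and each group always held the same position on its slide, so group and position cannot be told apart. The deposited values are quantile normalized, which sets every array to 1 distribution. Scaled to the spike-in control spots instead, the median difference between shTLS and control over all tested probes moved to -0.75 on the log2 scale in -/- cells and -0.81 in +/+ cells. Every direction below is therefore relative to the other probes of an array, and where the direction under spike-in scaling differs, its value or a count follows. Replicates are separate mice, and 3 arrays a group limit the precision of every value.

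The Ppargc1a probe was not called between genotypes (log2 difference of -/- minus +/+ -0.18 ± 0.52, SE, averaged over hairpins), and since the deleted part is not given, it checks nothing about the genotype. All 5 hepatocyte marker genes with a probe (of 7 listed) were above background on every array, albumin among them.

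Among the activators, Arntl stood at higher values with shTLS on the quantile scale, though not under spike-in scaling, and Npas2 at lower values under both. Arntl read 9.51, 9.81 and 10.08 in -/- shTLS cells, against 8.90, 8.59 and 9.50 in -/- control cells. Values in +/+ shTLS cells were 9.76, 10.76 and 10.14, against 9.34, 10.41 and 9.74 in +/+ control cells. The -/- groups narrowly did not overlap, while the +/+ groups did, and the shTLS array was the higher one in 6 of 6 mice. The log2 difference was 0.80 ± 0.37 in -/- cells (1.75-fold; adjusted p = 0.44) and 0.39 ± 0.37 in +/+ cells (1.31-fold; adjusted p = 0.62). Averaged over genotypes it was 0.60 ± 0.26 (adjusted p = 0.17), and it was -0.26 under spike-in scaling.

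Npas2, the CLOCK relative, read 4.05, 3.24 and 4.24 in -/- shTLS cells, against 4.13, 4.07 and 4.99 in -/- control cells. The +/+ shTLS cultures gave 4.38, 3.94 and 4.34, against 4.85, 4.82 and 5.02 in +/+ control cells. Here the +/+ groups did not overlap, and the shTLS array was lower in 6 of 6 mice. Averaged over genotypes the log2 difference was -0.61 ± 0.24 (0.65-fold; adjusted p = 0.12), and the level is near background, with the probe well above it on 11 of 12 arrays. With the replicate number as a block, Npas2 fell by 0.61 ± 0.17 (log2, SE; adjusted p = 0.026), and it was lower under every scaling tried, at -0.30 (75th percentile), -0.13 (normexp background correction) and -1.16 (spike-in).

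The largest difference among the members on the quantile scale was that of Nr1d1, the repressor of Arntl and Nfil3. Its brightest probe read 6.01, 6.56 and 8.12 in -/- shTLS cells, against 4.74, 5.65 and 6.58 in -/- control cells. In +/+ shTLS cells it read 6.41, 9.10 and 8.35, against 4.17, 7.29 and 6.75 in +/+ control cells. The groups overlapped in both genotypes, with the first culture of each group far below the rest in +/+ cells, yet each mouse's shTLS culture was above its control culture, by 0.91 to 2.24. The log2 difference was 1.24 ± 0.93 in -/- cells (2.36-fold) and 1.88 ± 0.93 in +/+ cells (3.69-fold), and 1.56 ± 0.66 averaged over genotypes (2.95-fold; adjusted p = 0.15). Leaving out 1 array moved these values to 0.63 (without -/- shTLS 3) to 1.70 (without -/- control 3) in -/- cells, and to 0.93 (without +/+ control 1) to 2.65 (without +/+ shTLS 1) in +/+ cells.

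With the replicate number as a block, which takes out the level shared by same-numbered cultures, Nr1d1 rose by 1.56 ± 0.35 averaged over genotypes (adjusted p = 0.012) and by 1.88 ± 0.50 in +/+ cells (adjusted p = 0.041), and did not pass in -/- cells (adjusted p = 0.17). With the mouse as a fixed block, which pairs the cultures of each mouse, it passed in -/- cells too (adjusted p = 0.022). The second Nr1d1 probe gave 0.97 ± 0.31 averaged over genotypes (adjusted p = 0.074), was higher in 6 of 6 mice, and passed with the block (adjusted p = 0.0039). Its level is near background, at log2 3.39 to 5.76, with the probe well above it on 11 of 12 arrays. The third Nr1d1 probe, above background on 7 of 12 arrays, gave 0.24 ± 0.25 and was higher in 5 of 6 mice. Under spike-in scaling the 3 probes gave 0.88, 0.42 and -0.27, so that both brighter probes kept their sign and the dimmest did not. After normexp background correction the 3 gave 0.84, 0.26 and 0.06.

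Nr1d2, the close relative of Nr1d1, read 9.16, 9.70 and 10.64 in -/- shTLS cells, against 8.88, 9.68 and 9.92 in -/- control cells. Values in +/+ shTLS cells were 9.78, 11.16 and 10.68, against 9.08, 10.38 and 9.98 in +/+ control cells. All 6 mice had the higher value with shTLS, by as little as 0.02 in the second -/- mouse, and the groups overlapped in both genotypes. The averaged log2 difference was 0.53 ± 0.36 (adjusted p = 0.35, and 0.068 with the replicate block), and -0.31 under spike-in scaling.

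Per1 and the brighter Per2 probe, both of E-box target genes like Nr1d1, stood at lower values with shTLS on the quantile and the spike-in scale. Per1 read 10.06, 9.66 and 10.49 in -/- shTLS cells, against 9.97, 9.96 and 10.43 in -/- control cells. The +/+ shTLS cultures gave 9.87, 11.57 and 10.74, against 10.66, 11.63 and 10.83 in +/+ control cells. Both pairs of groups overlapped, 2 of 6 mice were higher with shTLS, and the averaged log2 difference was -0.18 ± 0.31 (adjusted p = 0.73), which turned to 0.03 without the first +/+ shTLS array. Under spike-in scaling, where the whole array moves down, Per1 was called lower (-1.03, adjusted p = 0.010).

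Per2 gave different signs with its 2 probes. The brighter one read 6.15, 5.86 and 5.74 in -/- shTLS cells, against 7.02, 5.41 and 5.98 in -/- control cells, and 5.51, 5.45 and 5.77 in +/+ shTLS cells, against 7.04, 6.02 and 6.02 in +/+ control cells. The +/+ groups did not overlap on this probe, and 5 of 6 mice were lower with shTLS, but a large part of the spread lay in the 2 control arrays of replicate 1, at 7.02 and 7.04. Its averaged log2 difference was -0.50 ± 0.29 (adjusted p = 0.28), and -0.23 after normexp correction. The dimmer probe, above background on 11 of 12 arrays, gave 0.47 ± 0.23 (adjusted p = 0.22), was higher in 4 of 6 mice, and was -0.09 under spike-in scaling. Over the 12 arrays the 2 probes correlated by only 0.0013, so the direction of Per2 cannot be given.

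Cry1, which blocks the ARNTL pair, was read by 2 probes of like behaviour. The second probe read 7.60, 8.00 and 7.81 in -/- shTLS cells, against 6.76, 7.28 and 7.50 in -/- control cells, with no overlap. In +/+ shTLS cells it read 8.19, 7.96 and 7.66, against 7.45, 7.68 and 7.47 in +/+ control cells, with overlap. Cry1 was higher with shTLS in 6 of 6 mice on both probes, by 0.46 ± 0.27 on the first (adjusted p = 0.27) and by 0.51 ± 0.19 on the second (adjusted p = 0.11), and was at -0.31 and -0.28 under spike-in scaling. Cry2, its relative, differed little between hairpins, at 0.15 ± 0.29 averaged over genotypes (adjusted p = 0.77), with 3 of 6 mice higher, and turned to -0.04 without the third -/- shTLS array. Cry2 turned to -0.69 under spike-in scaling and was called there (limma adjusted p = 0.025), where the median of all tested probes was -0.78.

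Both outputs stood at higher values with shTLS on the quantile scale, while under spike-in scaling Dbp was below 0 and Nfil3 near 0. Dbp, the D-box activator, read 9.80, 9.89 and 9.21 in -/- shTLS cells, against 9.38, 9.05 and 8.67 in -/- control cells. Values in +/+ shTLS cells were 8.39, 9.11 and 8.96, against 8.49, 8.38 and 8.25 in +/+ control cells. Groups overlapped in both genotypes, the shTLS culture was higher in 5 of 6 mice, and the averaged log2 difference was 0.53 ± 0.21 (1.44-fold; adjusted p = 0.13) and -0.32 under spike-in scaling.

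Nfil3, the D-box repressor, read 12.80, 13.52 and 13.85 on its brighter probe in -/- shTLS cells, against 12.33, 12.43 and 12.67 in -/- control cells. The +/+ shTLS cultures gave 13.38, 14.32 and 14.12, against 12.87, 13.72 and 13.03 in +/+ control cells. The -/- groups did not overlap and the +/+ groups did, and 6 of 6 mice were higher with shTLS on both probes. The averaged log2 difference was 0.82 ± 0.26 (1.77-fold; adjusted p = 0.070) on the brighter probe and 0.83 ± 0.40 (adjusted p = 0.21) on the dimmer. With the replicate block Nfil3 rose on both (adjusted p = 0.010 and 0.046), while under spike-in scaling the 2 probes stood at 0.09 and 0.02 averaged, and at -0.02 and -0.16 in +/+ cells, with no call.

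**Figure D1:**
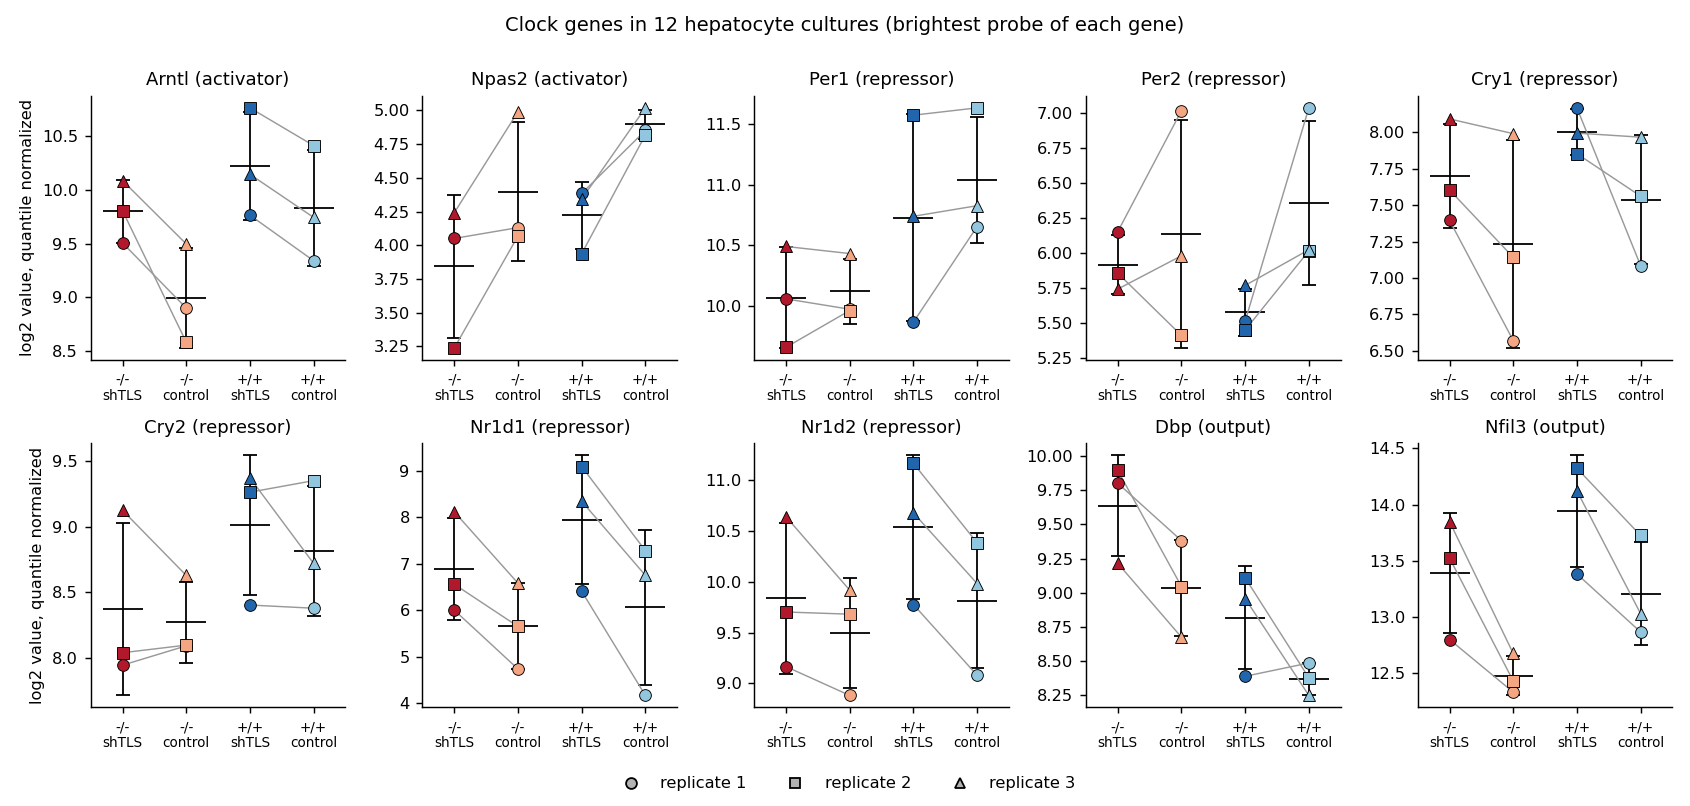
The brightest probe of each of the 10 clock genes is plotted on every array, as the deposited log2 value on the vertical axis against the 4 groups (-/- shTLS, -/- control, +/+ shTLS, +/+ control), with bars for the group mean and SD (n = 3) and grey lines joining cultures of the same mouse. Lines of Arntl, Nr1d1, Nr1d2 and Nfil3 run down from shTLS to control in 6 of 6 mice and those of Npas2 run up, while spread between mice leaves most groups overlapping; under spike-in scaling the averages of Arntl and Nr1d2 change sign.

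Set side by side on the quantile scale, the 2 activators went opposite ways, with averaged log2 differences of 0.60 (Arntl) and -0.61 (Npas2). Both were below 0 under spike-in scaling (-0.26 and -1.16). On the quantile scale 8 of 10 repressor probes (median 0.47) and 3 of 3 output probes (median 0.82) were above 0. Over all roles 12 of 15 probes were above 0 in each genotype, with medians of 0.47 in -/- cells and 0.45 in +/+ cells, against -0.03 and -0.01 for all tested probes. Under spike-in scaling 4 and 2 of 15 were above 0, although 12 of 15 in each genotype stayed above the shifted median of all probes.

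On group means 0 of 15 member probes were called in -/- cells, where 0.773% of all tested probes were called, and 0 of 15 in +/+ cells, where 0.989% were. Averaged over genotypes, 0 of 15 were called against 7.78% of all probes, with adjusted p-values of 0.070 to 0.77. At an unadjusted limma p under 0.05 the counts were 2 of 15 in -/- cells (11.8% of all probes), 1 in +/+ cells (16.3%) and 7 averaged (27.9%). The groups did not overlap for 3 of 15 probes in -/- cells (Arntl, the second Cry1 probe and the brighter Nfil3 probe), against 18.9% of all probes, and for 2 of 15 in +/+ cells (Npas2 and the brighter Per2 probe), against 20.0%. All 6 mice shared a sign for 9 of 15 probes, 8 of them above 0, where 38.0% of all tested probes shared a sign and 18.9% were above 0 in all 6.

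With the replicate number as a block, 5 of 15 member probes were called averaged over genotypes, 4 higher (both brighter Nr1d1 probes and both Nfil3 probes) and 1 lower (Npas2), where 28.8% of all probes were called. In +/+ cells 2 of 15 were called (12.5% of all) and in -/- cells 0 of 15 (5.86%). With the mouse as a fixed block the counts were 9 of 15 averaged over genotypes (32.8% of all), 3 of 15 in +/+ cells (15.8%) and 1 of 15 in -/- cells (8.04%). The 9 were the 5 above with Arntl (adjusted p = 0.017), the second Cry1 probe (0.033), Nr1d2 (0.025) and Dbp (0.043). These 4 were higher on the quantile scale and below 0 under spike-in scaling. With the mouse block the share of members was above that of all probes averaged over genotypes. In the single genotypes, and with the replicate block, the 2 shares were closer. Several probes read the same gene, and whether the list differs from other probes was not tested.

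**Figure D2:**
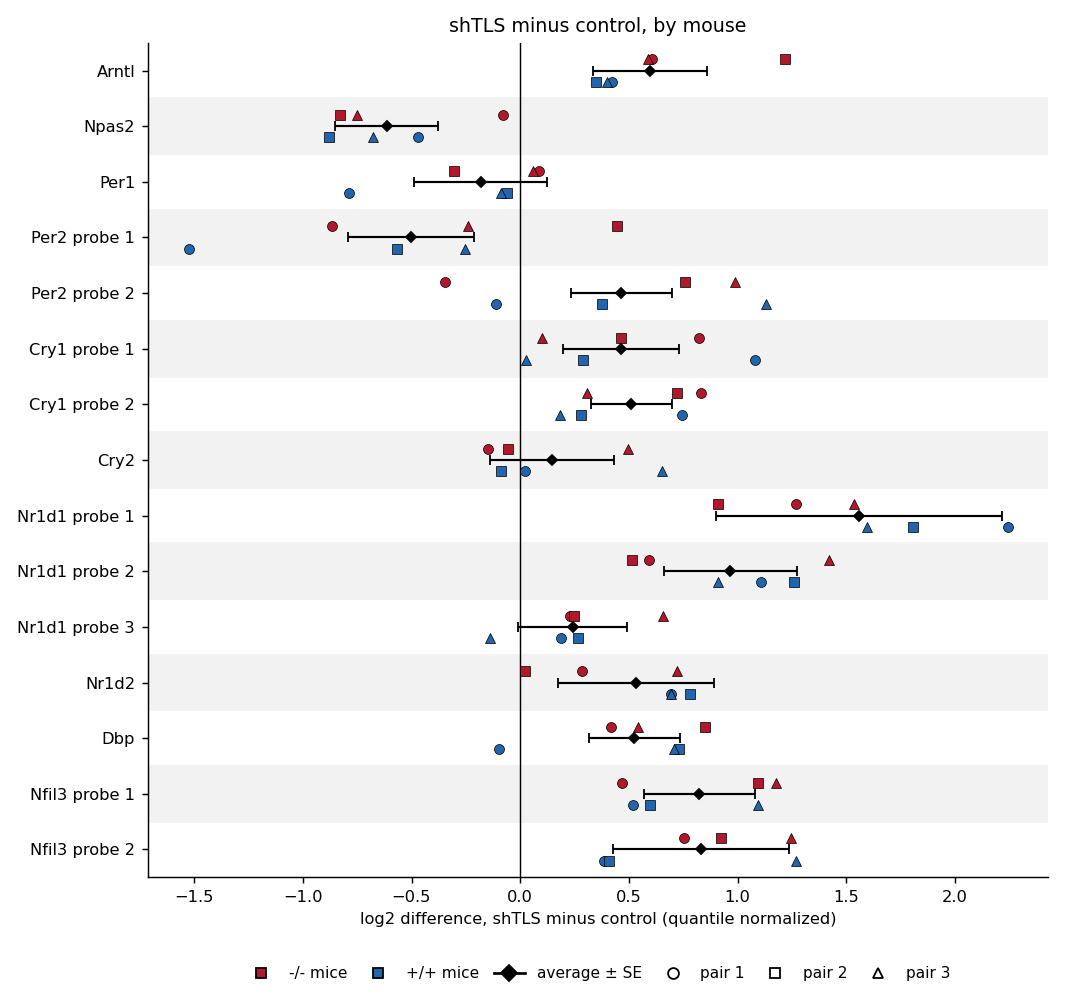
The log2 difference of shTLS minus control is plotted on the horizontal axis for each mouse (red for -/- mice, blue for +/+ mice, symbols for the replicate number) and each of 15 clock gene probes down the page, with black diamonds for the average over genotypes ± SE from limma. Both brighter Nr1d1 probes and both Nfil3 probes lie right of 0 in all 6 mice (averages 1.56, 0.97, 0.82 and 0.83) and Npas2 left of 0 (-0.61), on the quantile scale. Under spike-in scaling the averages of these 5 keep their sign, but those of the Nfil3 probes are near 0 (0.09 and 0.02). In +/+ cells the Nfil3 probes are then below 0 (-0.02 and -0.16).

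**Figure D3:**
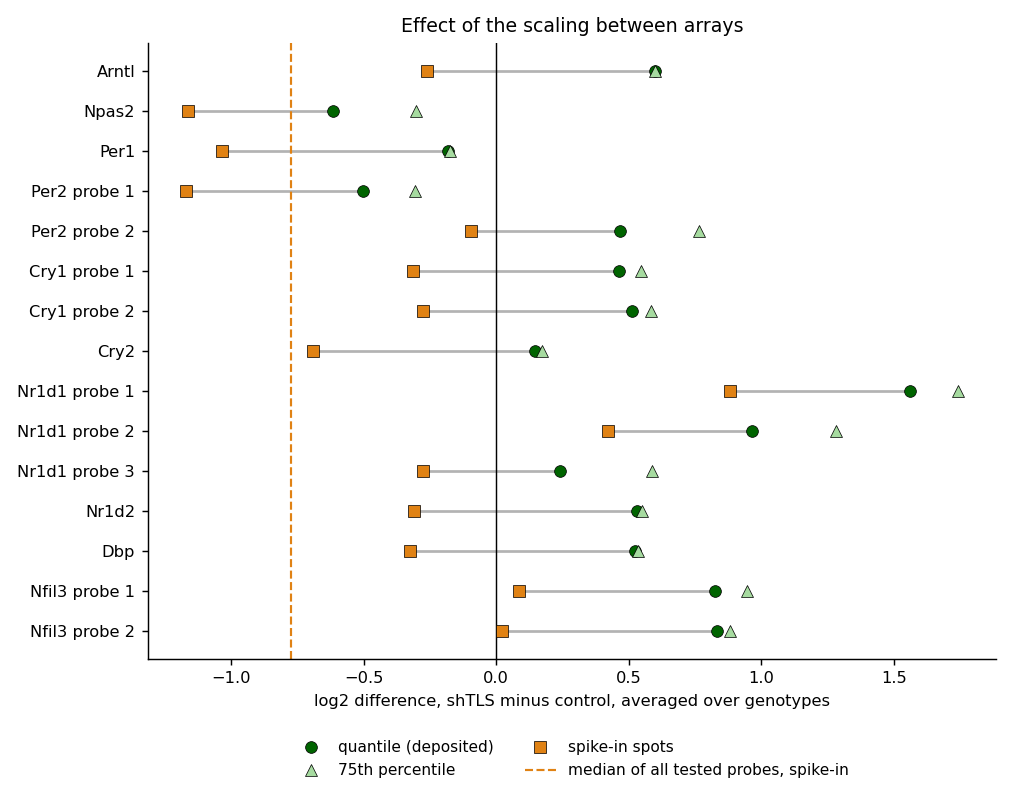
Averaged log2 differences of shTLS minus control are plotted on the horizontal axis for the 15 probes under quantile normalization, 75th percentile scaling and spike-in scaling, with a dashed line at the median of all tested probes under spike-in scaling (-0.78). Of the 12 probes above 0 under quantile normalization, 4 stay above 0 under spike-in scaling (Nr1d1 and Nfil3, 2 probes each), and 12 of 15 lie right of the dashed line.

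Whether the effect of the TLS hairpin differed between genotypes was tested for each probe as the difference of differences. It was called for 0 of 15 member probes and for 0 of all 24965 (0.0%), and 0 of 15 members had an unadjusted limma p under 0.05, against 66 of all tested probes (0.264%). The estimates ran from -0.64 (Nr1d1, brightest probe, SE 1.31) to 0.56 (Per2, brighter probe, SE 0.58). For Arntl the estimate was 0.41 ± 0.53, and the 3 same-numbered pairs gave 0.18, 0.87 and 0.19. These errors come from the fit of group means, which does not pair the cultures of a mouse. With the mouse as a fixed block the SE was 0.27 for Arntl and 0.46 for the brighter Per2 probe. That fit too called 0 of 15 members and 0 of all 24965 probes. The size of the members' response in -/- and +/+ cells was thus not distinguished at 3 mice a genotype.

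Between genotypes, Dbp was the member that stood higher in -/- cells, under either hairpin and every scaling tried. With shTLS it read 9.80, 9.89 and 9.21 in -/- cells, against 8.39, 9.11 and 8.96 in +/+ cells, and with the control hairpin 9.38, 9.05 and 8.67 in -/- cells, against 8.49, 8.38 and 8.25 in +/+ cells. The genotypes did not overlap under either hairpin. The log2 difference was 0.82 ± 0.30 with shTLS, 0.66 ± 0.30 with the control hairpin and 0.74 ± 0.28 averaged (1.67-fold), with 6 of 6 same-numbered pairs above 0 and 0.84 under spike-in scaling. Such 6 pairs are 3 pairs of mice, each read under both hairpins, and so are not independent. The adjusted p over all probes was 1.00 in each case, and with the replicate block 0.61 with shTLS, 0.55 with the control hairpin and 0.22 averaged.

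Most other members stood lower in -/- cells. Per1, the light- and hormone-inducible period gene, averaged 10.07 ± 0.42 in -/- shTLS cells against 10.73 ± 0.85 in +/+ shTLS cells, and 10.12 ± 0.27 in -/- control cells against 11.04 ± 0.52 in +/+ control cells (SD, n = 3 each). Its groups overlapped with shTLS and not with the control hairpin, and the averaged difference was -0.79 ± 0.35 (5 of 6 pairs below 0). The second pair carried much of it, at -1.91 with shTLS and -1.67 with the control hairpin. Nfil3 averaged 13.39 ± 0.54 in -/- shTLS cells against 13.94 ± 0.50 in +/+ shTLS cells, and 12.48 ± 0.18 in -/- control cells against 13.21 ± 0.46 in +/+ control cells, again without overlap only under the control hairpin.

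Arntl, Npas2, Cry2, Nr1d2 and both Nfil3 probes were lower in -/- cells in 6 of 6 pairs, with averaged log2 differences of -0.63, -0.44, -0.59, -0.51, -0.64 and -0.65. These 6 pairs again come from 3 pairs of mice. For Arntl the second pair carried much of the difference, at -0.96 with shTLS and -1.82 with the control hairpin. The other Arntl pairs lay between -0.44 and -0.06. The brightest Nr1d1 probe gave -0.73 ± 0.68 with 5 of 6 pairs below 0 (with the control hairpin -0.41, and 0.20 without +/+ control 2), the 2 Cry1 probes -0.31 and -0.24, and the 2 Per2 probes 0.06 and 0.06. In all, 4 of 15 probes were above 0 averaged over hairpins (Dbp, both Per2 probes and the dimmest Nr1d1 probe), with the same count under spike-in and 75th percentile scaling and 2 of 15 after normexp correction. The median was -0.44, against 0.01 for all tested probes.

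On group means 0 of 15 members were called with shTLS, where 0.0721% of all probes were called, 0 with the control hairpin, where 0.0801% were, and 0 averaged, where 0.0881% were. The replicate block called 0 members too, against 0.156%, 0.172% and 0.505% of all probes, and the counts at an unadjusted limma p under 0.05 were 1 of 15 with shTLS (2.16% of all), 2 with the control hairpin (3.14%) and 2 averaged (2.76%). Groups did not overlap for 1 of 15 probes with shTLS (Dbp; 5.42% of all) and for 3 of 15 with the control hairpin (Dbp, Per1 and the brighter Nfil3 probe; 6.99% of all). All 6 pairs, from 3 pairs of mice, shared a sign for 7 of 15 probes, 6 of them below 0. Of all tested probes, 15.2% shared a sign and 8.42% were below 0 in all 6.

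Macrophage markers averaged higher in -/- than in +/+ cultures, most of all with the control hairpin. By probe, 7 of 8 were higher in -/- cells with shTLS and 8 of 8 with the control hairpin. Their median log2 differences were 0.83 and 1.97, with 0 called. Sums of markers were taken on a linear scale from the deposited quantile normalized values, over the brightest probe of each gene. For macrophage markers (6 of 7 genes with a probe) the sum was 4642 to 20014 in -/- shTLS cells against 4177 to 4299 in +/+ shTLS cells, and 6164 to 73157 in -/- control cells against 3418 to 10154 in +/+ control cells. Within -/- cells the range was thus lower with shTLS. The highest sums mostly follow Marco, at log2 15.17 and 15.43 in -/- control 1 and 2. In -/- control 3 Marco read 10.20, against 10.29 in +/+ control 3. Hepatocyte markers summed to 124920 to 158331 in -/- shTLS cells against 183074 to 204874 in +/+ shTLS cells, and to 143298 to 195342 in -/- control cells against 160710 to 254590 in +/+ control cells. These sums mostly follow albumin, by far the brightest of the 5 genes (log2 16.86 to 17.75 over the 12 arrays). By probe, 2 of 6 hepatocyte probes were higher in -/- cells with shTLS, 2 with the control hairpin and 3 averaged over hairpins. Between hairpins, 6 of 6 hepatocyte probes were lower with shTLS in each genotype, with 0 called. Their median log2 differences were -0.70 in -/- cells and -0.54 in +/+ cells. Summed cholangiocyte markers, 4 of 4 genes, spanned 1248 to 3619 in -/- shTLS cells against 1188 to 13437 in +/+ shTLS cells, and 2825 to 13248 in -/- control cells against 2375 to 34909 in +/+ control cells. By probe, 0 of 5 cholangiocyte probes were higher in -/- cells under either hairpin. Endothelial markers (5 of 5 genes) summed to between 841 and 6325 over the 12 arrays. By probe, 6 of 6 were higher in -/- cells with shTLS and 5 of 6 with the control hairpin (median log2 differences 0.90 and 0.34). Stellate markers (5 of 5 genes) summed to 8421 to 25414 in -/- shTLS cells against 11535 to 27855 in -/- control cells. In +/+ cells they summed, narrowly without overlap, to 8999 to 11809 with shTLS against 11945 to 14678 with the control hairpin. These +/+ sums were mostly the brightest Acta2 probe, whose own groups overlapped (12.95, 13.44 and 13.06 against 13.29, 13.42 and 13.52). By probe, 4 of 5 stellate probes were lower with shTLS in +/+ cells (median log2 difference -0.26). Between genotypes, 4 of 5 stellate probes were higher in -/- cells with shTLS and 5 of 5 with the control hairpin (medians 0.86 and 0.99). None of the cholangiocyte, endothelial or stellate probes was called between genotypes. No marker of these lists was below background on every array of a group, and their part in the differences of the clock genes was not tested. In such bulk RNA, fewer cells of a type and less RNA per cell cannot be told apart.

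**Figure D4:**
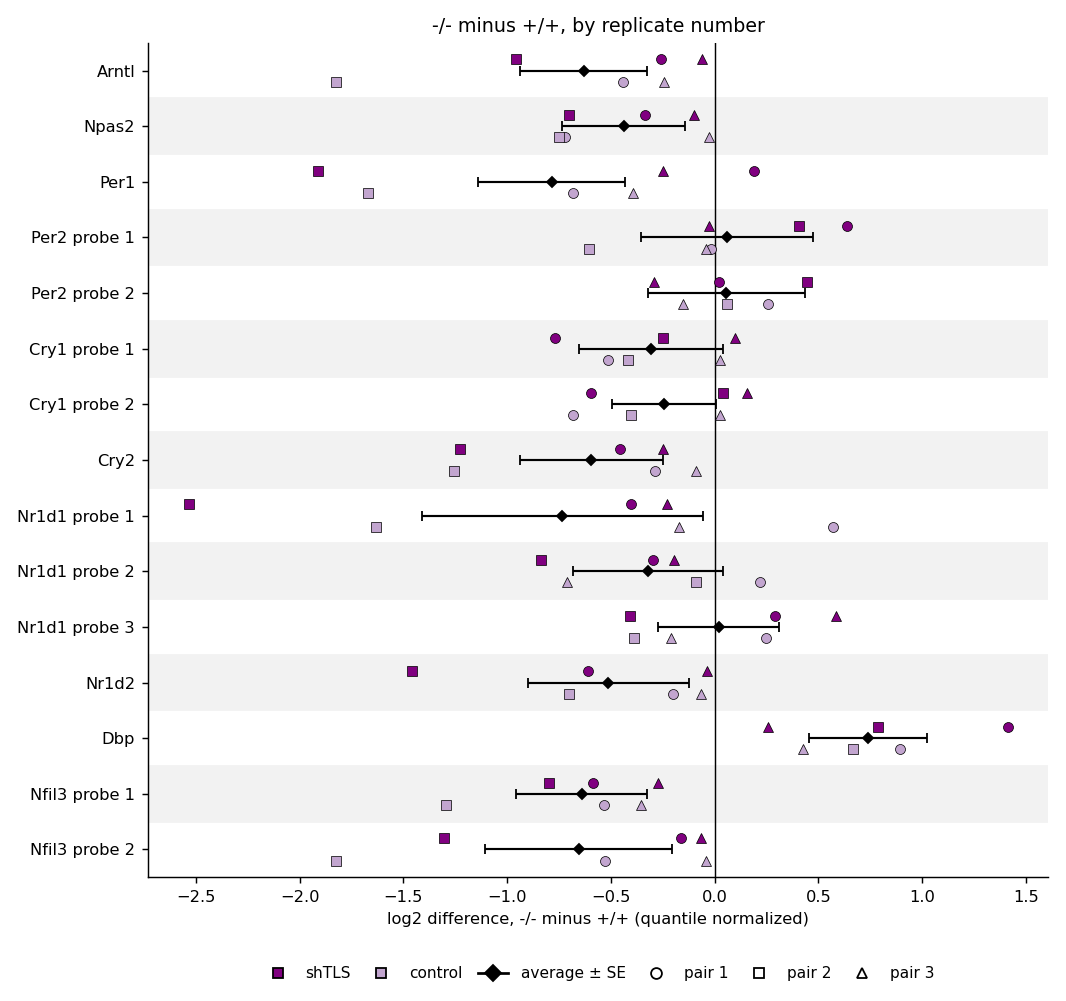
The log2 difference of -/- minus +/+ is plotted on the horizontal axis for each pair of same-numbered cultures (dark for shTLS, light for the control hairpin, symbols for the number) and each of 15 clock gene probes, with black diamonds for the average over hairpins ± SE from limma. The 6 pairs are 3 pairs of mice, each read under both hairpins. Dbp lies right of 0 in all 6 pairs (average 0.74), and Arntl, Npas2, Cry2, Nr1d2 and Nfil3 lie left of 0 in all 6; the averages of these 6 genes keep their sign under spike-in scaling.

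Levels of several members differed between culture numbers within a group. The brightest Nr1d1 probe spanned 4.93 log2 units over the 12 arrays, and its spread within groups (SD 1.30) was above that of 94.7% of all tested probes. The 4 cultures of number 1 were 0.89 to 1.90 below their group means for Nr1d1, and those of number 3 were 0.40 to 1.23 above. Number 2 was divided by genotype, with both -/- cultures at -0.33 and -0.00 and both +/+ cultures at 1.14 and 1.22.

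Nr1d2 repeated this order, with deviations of -0.76 to -0.61 in number 1 and 0.14 to 0.80 in number 3, and Cry2 and Nfil3 were below their group means in all 4 cultures of number 1. In the second +/+ mouse Per1 stood 0.85 and Arntl 0.54 above the group mean with shTLS, and 0.59 and 0.58 above it with the control hairpin. Dbp had a within-group SD of 0.32, above that of 20.7% of all tested probes, and Npas2 one of 0.39. Over all members the median within-group SD was 0.46, against 0.51 for all tested probes, and 7 of 15 member probes lay above that. The dimmer Nfil3 probe (above 76.6% of all) and Nr1d2 (68.7%) followed the brightest Nr1d1 probe, whose other 2 probes were above 56.9% and 38.0%.

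**Figure D5:**
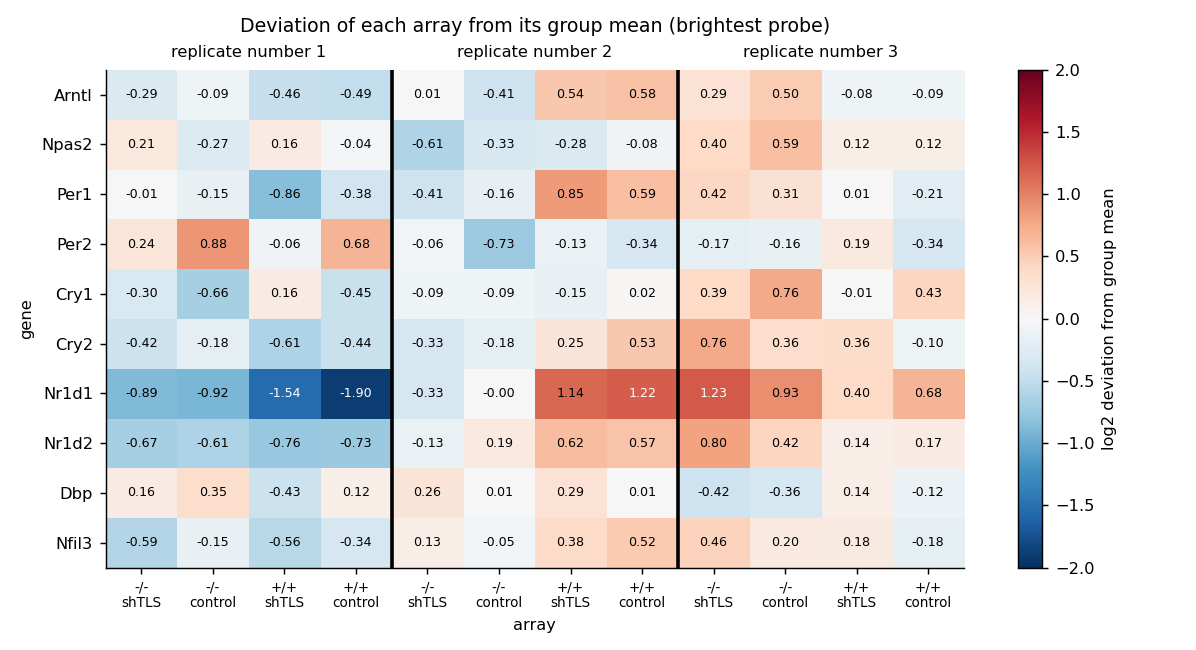
Colours and printed numbers give the log2 deviation of each array from its group mean, for the brightest probe of the 10 clock genes (rows) and the 12 arrays (columns), which are ordered by replicate number and within it as -/- shTLS, -/- control, +/+ shTLS and +/+ control. Nr1d1 and Nr1d2 are below 0 in all 4 arrays of number 1 and above 0 in all 4 arrays of number 3, with Nr1d1 at -1.90 and -1.54 in the +/+ cultures of number 1.

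Across the 12 arrays the tightest pair of members was Nr1d1 and Nr1d2, with Pearson's r of 0.96, and 0.97 for deviations from group means. Arntl went with Nfil3 (0.93 and 0.85), and with Nr1d1 (0.83 and 0.84), its own repressor. Npas2 ran against Dbp (-0.85 and -0.74). These are descriptions over 12 arrays that share mice, slides and normalization.

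The probes most like each of 3 members over the 12 arrays were taken from 18290 to 18292 tested probes of other named genes. For Arntl they were Vegfa, a vascular growth factor (r = 0.98), Ppp2r2d, a phosphatase subunit (0.97), and Rragd, a GTPase of nutrient sensing (0.96). For the brightest Nr1d1 probe they were Ndel1 (0.99), Apc (0.98) and Mtdh (0.98). Dbp had looser neighbours, led by Svop (0.88), Pcdhga7 (0.87) and Nedd4 (0.87).

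Genes of the loop outside the 10 were read for comparison, averaged over genotypes for shTLS against control. In that comparison 7.78% of all tested probes were called on group means and 28.8% with the replicate block. The median of all tested probes under spike-in scaling was -0.78. Of 8 other core loop genes, 6 had tested probes, 7 of 9 such probes were above 0, and 1 was called, the third probe of Clock, the partner of ARNTL (1.13 ± 0.30, adjusted p = 0.046, higher in 6 of 6 mice), while its brighter probes gave 0.39 and 0.30 without a call. Under spike-in scaling 3 of these 9 probes were above 0, and the 3 Clock probes, from the brightest to the dimmest, stood at -0.43, -0.54 and 0.49. With the replicate block 3 of the 9 were called. Ciart, a repressor of the ARNTL pair, gave 1.72 ± 0.58 (adjusted p = 0.088) and passed with the replicate block (0.0068). The 2 probes of Rora, an activator at the ROR element and so an opponent of Nr1d1, gave 0.28 and 0.34 without a call, and -0.56 and -0.51 under spike-in scaling. Bhlhe41 gave 0.92 ± 0.73 and Bhlhe40 -0.13 ± 0.52, both E-box repressors, and Per3 and Rorb were not tested.

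Of the other D-box activators, the 3 probes of Tef gave -0.16, -0.20 and 1.03 and Hlf gave -0.11, with 0 of 4 called on group means, 1 with the replicate block (the third Tef probe, adjusted p = 0.0096) and 1 of 4 above 0 under spike-in scaling. The counts of the lists that follow stand beside the same shares of all probes, 7.78% on group means and 28.8% with the replicate block. Of 15 tested probes for 8 regulators of clock protein turnover, 6 were called with the replicate block (2 higher, 4 lower). Under spike-in scaling, which moved the median of all probes to -0.78, 0 of them were above 0, against 5 on the quantile scale. On group means 2 were called, both lower: the dimmer probe of the kinase Csnk1e (-1.33 ± 0.29, adjusted p = 0.022), whose brighter probe gave -0.43 ± 0.22, and the dimmer probe of the ubiquitin ligase subunit Fbxl21 (-0.88 ± 0.24, adjusted p = 0.0495), whose brighter probe gave -0.14 ± 0.23. Of 14 tested probes for rhythmic liver genes, 5 were called with the block (3 higher, 2 lower) and 2 were above 0 under spike-in scaling, against 9 on the quantile scale. On group means 1 was called, the dimmer probe of Insig2, a brake on sterol synthesis (-0.90 ± 0.23, adjusted p = 0.043), with the brighter one at -0.76 ± 0.27. Of 8 probes for corepressors and coactivators 0 were called on group means, and 1 with the replicate block, the dimmer probe of the deacetylase Sirt1 (1.13 ± 0.19, adjusted p = 0.0036), which stood at 0.30 under spike-in scaling. The brighter Sirt1 probe gave 0.77 ± 0.30 with that block (limma adjusted p = 0.082), and -0.05 under spike-in scaling. Between genotypes 0 probes of these lists were called, and 8 of 9 probes of the other core loop genes were below 0 averaged over hairpins (median -0.76).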

How the data were processed

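Total RNA of 12 hepatocyte cultures was hybridized to 1-colour Agilent arrays, 4 to a slide on 3 slides. Spots were read with Agilent Feature Extraction 10.1.1.1, per the submitters' processing notes, which also name limma without a version. The deposited array files give each spot's processed signal, median signal and median background as an intensity on a linear scale, and other columns of 0 or 1 flags, per the file headers. The deposited value table gives log2 values for the 12 arrays, made by the authors from signals floored at 1 and quantile normalized, per the labels. It correlated by at least 0.99997 with values recomputed here from the array files.

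The deposited log2 values were used as they stand. Symbols came through RefSeq accessions from a table of assembly GRCm38.p6, which gave 24375 of 41174 probes a symbol. No coordinates of that table's genes were used, since the array files name another build, and the promoter windows carry their own. The brightest probe of a gene is the one with the highest mean over the arrays, and probes are numbered in that order. Levels of different probes were not compared.

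Tests used limma 3.58.1 in R 4.3.3, with 1 fit of the 4 group means to 12 arrays (8 residual degrees of freedom) over 24965 probes, two-sided moderated tests and Benjamini-Hochberg adjustment over all of them. A probe was called at an adjusted p under 0.05, and differences carry standard errors. The genotype comparison averaged over hairpins took the mouse as a random block (statmod 1.5.0, correlation 0.584). With 3 against 3 arrays an exact test of 1 probe cannot go below p = 0.1. Fits were tested on simulated data. The source names give mouse and assay, so the replicate number pairs the samples. Deviations from group means correlated by 0.451 to 0.670 within a mouse, by 0.216 to 0.639 between same-numbered mice and by at most 0.104 between different numbers. Counts and calls that change with that block are given with it.

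Alternatives were values recomputed from the array files, 75th percentile and spike-in scaling, normexp background correction (offset 50), stricter and no filters on dim probes, 1 probe per gene, only the groups compared, blocks for replicate number and mouse, and leaving out each array. Named genes are the members, the other core loop and D-box genes, listed genes called in a comparison, the targeted genes, and the 3 probes most like Arntl, Nr1d1 and Dbp. The check of the hairpin's target and 1 core loop gene are not reported here. Elsewhere only counts of lists are given, except that Sirt1, called with the block, was named after its values were seen. The members and lists were chosen with earlier results of these data known. Marker lists cover hepatocytes, macrophages, endothelial cells, stellate cells and cholangiocytes.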

Additional observations from a re-analysis of the deposited data

How the results depend on the processing

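Of 105 member values (15 probes in 7 comparisons), 0 were called on group means, and 0 were called under recomputed values, either other filter on dim probes, 1 probe per gene or only the groups compared. No alternative called a member between genotypes or in the difference of effects. The 75th percentile scaling called the second Nr1d1 probe (1.28, adjusted p = 0.041) and normexp correction the brighter Nfil3 probe (0.81, adjusted p = 0.044), both averaged over genotypes. Spike-in scaling turned 31 of 105 signs and called 6 values lower: Npas2 (-1.16), Per1 (-1.03), the brighter Per2 probe (-1.17) and Cry2 (-0.69, against 0.15 on the quantile scale) averaged over genotypes, and Npas2 (-1.27) and Per1 (-1.20) in +/+ cells. Of all 24963 probes in that fit, 12459 were called lower averaged over genotypes (median of all -0.78) and 4329 in +/+ cells (median of all -0.81). Cry2 lay above the averaged median. The replicate block called 7 values and the mouse block 13, with no sign turned. Leaving out 1 array called the brighter Nfil3 probe averaged over genotypes (without -/- shTLS 1, +/+ shTLS 1 or +/+ control 2, adjusted p = 0.042, 0.049 and 0.047) and the second Nr1d1 probe (without +/+ shTLS 1, adjusted p = 0.048), and turned 2 to 13 of 105 signs, most without +/+ shTLS 1. Averaged over genotypes these were Per1 and Cry2 for shTLS.

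Over all probes, for shTLS against control, the count was 193 in -/- cells, 247 in +/+ cells and 1942 averaged. The replicate block gave 1463, 3110 and 7183, and the mouse block 2006, 3942 and 8196. Spike-in scaling gave 205, 4607 and 13194, with 59.5%, 6.03% and 5.57% of calls higher, against 95.3%, 83.0% and 58.2%. Scaling by the 75th percentile gave 287, 380 and 2385 (97.6%, 92.1% and 73.8% higher). Normexp correction gave 118 and 134 in the single genotypes, the filter on all 12 arrays 96 and 116, and only the groups compared 45 in +/+ cells. Leaving out 1 array gave 99 to 234 in -/- cells, 107 to 316 in +/+ cells and 719 to 2421 averaged. For -/- against +/+ the count was 18 with shTLS, 20 with the control hairpin and 22 averaged. The replicate block gave 39, 43 and 126, no mouse block 80 averaged, and the filter on all 12 arrays 3, 4 and 7. Normexp correction gave 8 with shTLS. No filter gave 12 and only the groups compared 6 with the control hairpin. Leaving out 1 array gave 11 to 22, 11 to 19 and 17 to 29. The count for the difference of effects was 0, and 0 to 1 leaving out 1 array. The cause was not tested. Normexp correction brought the averaged shTLS difference of all 3 Nr1d1 probes (0.84, 0.26 and 0.06), Npas2 (-0.13), both Per2 probes (-0.23 and 0.10), the first Cry1 probe (0.27) and Cry2 (0.05) nearer to 0 by over 1.5 times.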
